A study of Mus musculus with 4 samples.

Results

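The cells described here are the caudal cells with posterior Hox transcripts in ES-NMP, a mouse culture made to contain neuromesodermal progenitors (NMPs). A cell was counted as caudal when the UMIs (unique molecular identifiers, each standing for 1 captured transcript) of Hoxb6, Hoxb7, Hoxb8, Hoxb9 and Hoxc8 summed to at least 2, Nkx1-2 had at least 1 and Zfp42 had at most 1. The cell also had to carry the mark TRUE in the deposited cell table. The rule found 919 of the 3116 ES-NMP cells marked TRUE, which is 29.5% (95% exact Clopper-Pearson interval 27.9 to 31.1). They are part of 8722 barcodes marked TRUE among 10579 in all 4 libraries. Because these counts chose the cells, the levels of the 7 genes named in the rule are given as a description and support nothing.

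ES-NMP came from embryonic stem cells labelled E14Tg2a that were grown in N2B27 medium alone for 2 days and then for 24 h with 3 µM CHIR99021, a GSK3 inhibitor that activates WNT signalling. The comparison culture, Epi-NMP, was made from epiblast stem cells by way of a caudal epiblast-like stage called Epi-CE, and its cells were replated for 2 days in 20 ng/ml FGF2 and 3 µM CHIR99021. Epi-CE itself and Epi-CE-T, a Brachyury reporter line sorted for GFP after 72 h of that protocol, were the remaining libraries. All 4 groups therefore received CHIR99021 and each is 1 library, so cells are not replicates, no test across samples was possible, and every interval covers counting error only.

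In the mouse embryo, NMPs lie in the caudal lateral epiblast and give rise to the spinal cord and the paraxial mesoderm of the trunk. Nkx1-2 is a homeobox gene of that region, and the CDX factors, WNT and FGF signals there act upstream of the trunk Hox genes. Hox genes lie in 4 clusters and are switched on in order along each cluster, so that genes of higher number mark a more posterior position. Zfp42, also called Rex1, is a marker of naive pluripotent cells.

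The caudal cells were about as deeply sequenced as the rest of the culture, with a median of 22130 UMIs per cell (8056 to 56038), against 21976 in the other ES-NMP cells. They had a median of 4490 detected genes, against 4389. When every cell was thinned at random to 8000 UMIs before the rule was applied, it found 606 cells, of which 601 were among the 919 (65.4% of them). Scrublet, a doublet caller, marked 51 of the 8722 cells (0.585%). In ES-NMP it marked 26 of 3116 (0.834%), and 3 of these were caudal. Of the 919 caudal barcodes, 6 also occurred in another library, as did 32 of all 3116 ES-NMP barcodes marked TRUE. Hprt, which the E14Tg2a line is known to lack, was at 204 CPM (summed UMIs per 1000000) in ES-NMP and 138 CPM in Epi-CE-T, against 0.801 CPM in Epi-CE and 0.943 CPM in Epi-NMP. The ES-NMP library thus goes against its cell line label, and line and protocol cannot be told apart where ES-NMP is set beside Epi-NMP.

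Within the caudal cells the 5 posterior Hox genes summed to a median of 10 UMIs per cell, with quartiles of 5 and 15 and a range of 2 to 44. Nkx1-2 had a median of 5 UMIs (quartiles 3 and 8, highest 23). Hoxb8 was detected in 91.5% of them, Hoxb9 in 86.7%, Hoxb7 in 70.8%, Hoxb6 in 59.8% and Hoxc8 in 52.8%. All 5 genes were found together in 256 cells (27.9%), 4 in 258, 3 in 227, 2 in 153 and a single gene in 25. These genes lie on chromosome 11, where Hoxb9 (chr11:96271457-96276595), Hoxb8 (chr11:96281905-96285315), Hoxb7 (chr11:96286623-96290162) and Hoxb6 (chr11:96292476-96301569) follow each other on the plus strand of mm10, and on chromosome 15 (Hoxc8, chr15:102990607-102994111, plus strand). All are protein-coding in GENCODE M21.

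The 65 caudal cells with a Hox sum of exactly 2 had 352 CPM of Cdx2 and 8.15 CPM of Hoxa7, against 276 and 3.75 CPM in the 178 cells left out with a sum of 1. The 82 caudal cells with a single Nkx1-2 UMI had 413 CPM of Cdx2, 58.1 CPM of Hoxa7 and 6.61 CPM of Acta2, against 282, 31.9 and 1099 CPM in the 81 cells left out for having none, of which 1 cell held most of the Acta2 UMIs. The 88 caudal cells with a single Zfp42 UMI had 547 CPM of Cdx2, 30.3 CPM of Hoxa7 and 69.6 CPM of Dppa5a, a naive gene, against 406, 71.7 and 475 CPM in the 12 cells left out with 2. Cdx2 was thus higher inside each limit, while Hoxa7 was lower inside the Zfp42 limit.

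Of the 4 genes proposed as markers of these cells, Cdx2 and Wnt3a were not used by the rule. Cdx2 (chr5:147300805-147307270, minus strand), a homeobox factor needed for trunk and tail formation, had a median of 4 UMIs per caudal cell at 8000 UMIs (0 to 16) and was detected in 96.6% of them, against 45.2% of the other cells with at most 1 Zfp42 UMI. Wnt3a (chr11:59248033-59290752, minus strand), the main WNT ligand of the caudal epiblast, was detected in 17.5% of caudal cells (0 to 4 UMIs), against 5.79% of those other cells. Both genes were thus detected more often in the caudal cells, although most caudal cells had no Wnt3a UMI at that depth. The markers came with the label, which was chosen with earlier results of these data known, so they are no independent support for it. The UMIs of each cell were also divided at random into 2 parts, the rule was applied to the first and levels were read in the second. Both parts come from the same cells, so high rule genes in the second part follow from the choice and support nothing. The 729 cells chosen in this way had 166 CPM of Hoxb9 in the second part, against 15.5 CPM in the other ES-NMP cells. Hoxb8 was at 132 against 12.5 CPM, and Cdx2 at 598 against 129 CPM. In the Zfp42 cells described next, Cdx2 was detected in 17.9% of cells and Wnt3a in 0.461% at 8000 UMIs.

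The rule's genes divide the ES-NMP cells marked TRUE into 5 groups. Beside the caudal cells there were 81 cells with posterior Hox but no Nkx1-2, 841 with Nkx1-2 but a Hox sum under 2, 407 with neither and 868 with more than 1 Zfp42 UMI, called Zfp42 cells. The last 4 groups together are the 2197 other ES-NMP cells, and without the Zfp42 cells they are the 1329 other low-Zfp42 cells. Most statements set the caudal cells against the other low-Zfp42 cells, since the rule itself removed the Zfp42 cells. Genes with at least 50 UMIs over both groups were compared, and a gene counted as higher or lower when its CPM ratio passed 1.5-fold.

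Against all other ES-NMP cells, 1000 of 12463 genes (8.02%) were higher in the caudal cells and 1613 (12.9%) were lower. Against the other low-Zfp42 cells, 334 of 11835 genes (2.82%) were higher and 1070 (9.04%) were lower, so lower genes outnumbered higher ones in either comparison. Among the 5057 genes outside the rule with at least 200 UMIs and 20 CPM in the higher group, Hox genes were 3 of the 10 with the highest ratios, and antisense genes in Hox clusters were another 2. Hoxc9 was 17.7-fold higher than in the other low-Zfp42 cells (95% interval 12.7 to 25.5, 22.5 against 1.27 CPM) and Hoxa7 9.22-fold (7.65 to 11.2, 40.5 against 4.39 CPM). After them came Hoxb4 (5.44-fold), the segmentation clock repressor Hes7 (5.22-fold, 4.73 to 5.77), the chromatin reader Mllt3 (4.07-fold), the GDNF-family receptor Gfra3 (3.97-fold), Cdx2 (3.89-fold, 3.75 to 4.02) and the adhesion molecule Ncam1 (3.83-fold). Hoxaas3 (13.2-fold) and Hoxb5os (8.71-fold) also stood among the first 10. Both are antisense genes that overlap Hox genes (Hoxaas3 overlaps the 3′ end of Hoxa7, and Hoxb5os overlaps Hoxb5 and Hoxb6), and the use of strand in counting is not given in the sources used here, so their reads and those of the partner genes cannot be told apart.

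**Figure D1:**
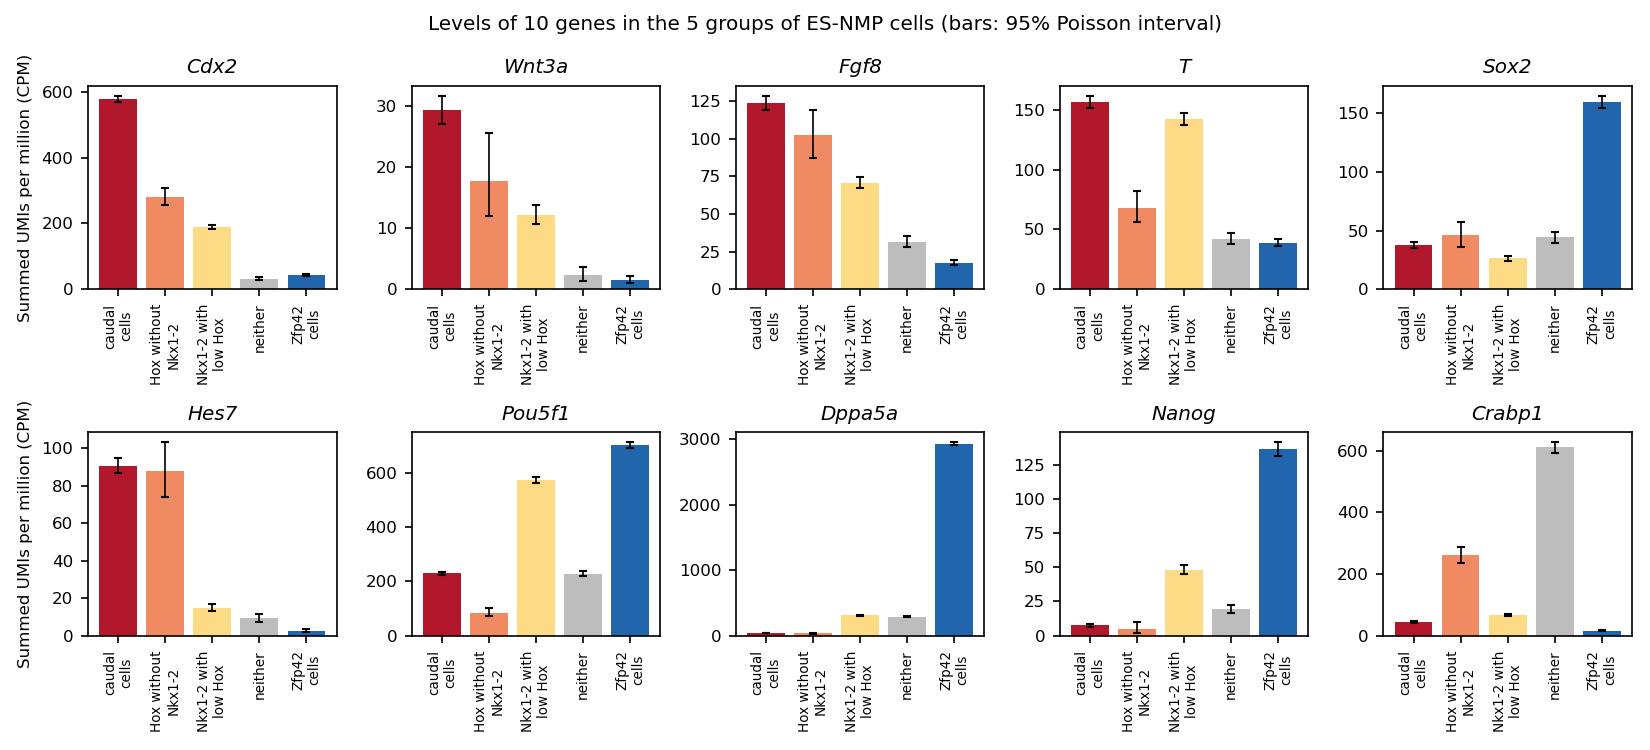
Bars give the level (CPM) of 10 genes in the 5 groups of ES-NMP cells, with 95% Poisson intervals. Cdx2, Wnt3a and Fgf8 are highest in the caudal cells (579, 29.3 and 124 CPM), while Sox2, Pou5f1, Dppa5a and Nanog are highest in the Zfp42 cells.

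The higher Hox levels ran along the clusters. Of the Hox genes of paralogue groups 1 to 5, 13 of 14 measured were at least 1.5-fold higher than in the other low-Zfp42 cells and none was lower (median log2 ratio 1.86, against -0.02 over all genes tested). All 5 measured of the 7 Hox genes of groups 6 to 9 outside the rule were higher (median 3.75), as was Hoxa10, the single measured gene of 12 in groups 10 to 13 (15.5-fold, 4.77 against 0.309 CPM). Ratios were small for the anterior genes Hoxa2 (1.45-fold) and Hoxb1 (1.88-fold) and larger for Hoxc6 (13.5-fold) and Hoxa9 (17.2-fold). The order was not strict, since Hoxd9 (23.4 CPM in the caudal cells) had a smaller ratio than Hoxb4. The Hoxb and Hoxc genes counted here share clusters with the genes of the rule, and the rule asks for Hox UMIs, so the counts describe the cells chosen. Further toward the posterior end, Hoxc10 had 1.65 CPM and Hoxd10 0.520 CPM in the caudal cells, and Hoxc11 and Hoxd12 had 0 UMIs. Hoxa6, which lies between expressed genes of its cluster, had 0 UMIs too, which allows up to 0.142 CPM for each at the 3-count limit. Annotated spans also overlap within the clusters (that of Hoxc5 covers Hoxc6, Hoxc8 and Hoxc9), so the authors' counting may have split or lost reads among them.

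Promoter stretches of some genes named in these results are shown. CDX factors and LEF/TCF, the nuclear partners of beta-catenin, are known to bind DNA near such genes. The stretches are RefSeq promoters on GRCm38.p6, printed 5′ to 3′ on the gene's strand and taken from the 250 bases before the start. Each was cut at its first annotated UTR base, if any, which left 112 bases for Hoxa7, 229 for Cdx2 and 249 for Wnt3a. The Hoxa7 stretch lies inside the GENCODE M21 span of that gene (chr6:52214491-52221854). Of 14 genes looked up, 8 had an entry, and of these only Cdx2, Wnt3a, Hoxa7 and T are reported. For CDX the letters searched on both strands were TTTATG and also, as its other form, TTTATA. For LEF/TCF they were the form CTTTGAA, then the variant ending differently, CTTTGAT, then also the pair of forms spelled CTTTGTA and, as the last of these, CTTTGTT. Capitals mark the matches. Hoxa7 (chr6:52218712-52218823, minus strand), T (chr17:8434173-8434422, plus strand) and Cdx2 (chr5:147307271-147307499, minus strand) are shown.
Hoxa7: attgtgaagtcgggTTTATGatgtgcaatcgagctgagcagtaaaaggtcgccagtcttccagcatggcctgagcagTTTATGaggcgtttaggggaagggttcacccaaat
T: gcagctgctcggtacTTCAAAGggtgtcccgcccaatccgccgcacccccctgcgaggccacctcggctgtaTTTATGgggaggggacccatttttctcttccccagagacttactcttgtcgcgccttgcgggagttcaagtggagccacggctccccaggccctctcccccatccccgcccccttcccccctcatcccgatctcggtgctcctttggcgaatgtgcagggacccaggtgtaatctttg
Cdx2: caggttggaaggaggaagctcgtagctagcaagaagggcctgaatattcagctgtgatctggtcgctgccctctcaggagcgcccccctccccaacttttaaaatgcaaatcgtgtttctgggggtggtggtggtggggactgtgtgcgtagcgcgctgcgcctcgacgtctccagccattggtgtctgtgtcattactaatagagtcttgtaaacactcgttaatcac
The Hoxa7 stretch held TTTATG at 236 to 231 and at 173 to 168 bases before the start. The T stretch held TTTATG at 178 to 173 and, on the other strand, CTTTGAA at 235 to 229, and these matches do not overlap. The Cdx2 and Wnt3a stretches (229 and 249 bases) held no match. Among 32851 mouse promoters of 250 bases, 20.9% hold a CDX match and 14.8% a LEF/TCF match. A match describes letters and is no evidence of binding.

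Among genes of the caudal epiblast and NMPs, 17 of 23 measured were at least 1.5-fold higher in the caudal cells than in the other low-Zfp42 cells and none was lower (median log2 ratio 1.03). All 3 Cdx genes were among them. Cdx4 was 6.27-fold higher (4.55 to 8.79, 10.1 against 1.61 CPM), Cdx2 had 579 against 149 CPM, and Cdx1 was 1.74-fold higher (128 against 73.8 CPM). The WNT ligands Wnt3a (3.02-fold, 2.62 to 3.49), Wnt5a (2.95-fold), Wnt5b (2.36-fold) and Wnt8a (1.59-fold) were higher too. So were the FGF ligands Fgf4 (3.49-fold), Fgf17 (3.18-fold, 2.78 to 3.63) and Fgf8 (2.02-fold, 1.90 to 2.15), which keep caudal progenitors undifferentiated in the embryo. Hes3, a repressor expressed in NMPs, had 78.8 against 28.2 CPM (2.79-fold), and the RNA-binding protein gene Grsf1 had 676 against 242 CPM (2.80-fold). The Nkx1-2 level, which the rule fixes in part, was 245 against 114 CPM. T, the T-box factor Brachyury of streak and NMPs, was 1.43-fold higher (1.36 to 1.5, 156 against 109 CPM), and Sox2, its neural counterpart, 1.15-fold (37.3 against 32.4 CPM), so neither passed 1.5-fold. Against all other ES-NMP cells T was 1.96-fold higher and Sox2 2.30-fold lower (37.3 against 86.1 CPM), and the Zfp42 cells among those held 160 CPM of Sox2.

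Targets and regulators of these signals differed in either direction. Of 13 measured FGF and ERK feedback genes, 4 were higher and none lower, namely the phosphatase gene Dusp4 (2.73-fold, 64.9 against 23.8 CPM), the ETS factor gene Etv4 (2.32-fold), the receptor antagonist gene Il17rd (1.81-fold) and Spry4 (1.63-fold, 4.30 against 2.64 CPM). Of 13 WNT targets and regulators, 2 were higher and 2 lower. Notum, a secreted WNT deacylase, was 2.33-fold higher and the SP factor gene Sp8 1.82-fold, while the WNT antagonist gene Dkk1 was 4.97-fold lower (1.18 against 5.87 CPM) and Tcf7l1 2.38-fold lower. In the NODAL list none of 8 was higher and 4 were lower, with Nodal itself 4.11-fold lower (3.45 against 14.2 CPM), its co-receptor gene Tdgf1 17.8-fold lower (13.1 to 24.9, 1.99 against 35.4 CPM) and Gdf3 2.54-fold lower. In the BMP list 1 of 11 was higher (Msx1, 1.70-fold) and 3 were lower, among them Bmp4 (2.60-fold).

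In the NOTCH and clock list, Hes7 was higher and Lfng (1.66-fold) and Jag1 (1.53-fold) were lower among 12 measured. Hes7 was detected in 35.6% of caudal cells at 8000 UMIs, against 7.45% of the other low-Zfp42 cells. Of 8 retinoic acid genes, 4 were higher, including the receptor gene Rarg (2.12-fold), the retinol uptake gene Stra6 (2.27-fold) and the degrading enzyme gene Cyp26a1 (2.04-fold, 7.14 against 3.50 CPM). The binding protein gene Crabp1 (5.14-fold lower, 45.2 against 233 CPM) and Aldh1a2, the enzyme that makes retinoic acid (3.82-fold lower), were the 2 lower members.

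Most measured pluripotency genes were lower in the caudal cells than in the other low-Zfp42 cells. Such low levels were not particular to the caudal cells. The primed and core list summed to 661 CPM in them and to 444 CPM in the Hox cells without Nkx1-2. Of 11 measured naive genes, 7 were lower than in the other low-Zfp42 cells and 1, Fgf4, was higher. Dppa5a was 6.42-fold lower (45 against 289 CPM, and near-identical copies of this gene make its counts uncertain), the threonine dehydrogenase gene Tdh 5.44-fold and Nanog 4.98-fold (7.56 against 37.7 CPM). Primed and core genes were lower in 10 of 17 cases and higher in none. Otx2, an anterior epiblast factor, had 1 UMI in all 919 cells (ratio 94.4-fold lower, interval 16.6 to 3756), Fgf5 was 11.5-fold lower and Utf1 had 13.2 against 70.0 CPM. Pou5f1 (Oct4) was still detected, with 229 CPM and a UMI in 69.3% of caudal cells at 8000 UMIs, against 448 CPM and 72.5% of the other low-Zfp42 cells. Set beside the Zfp42 cells, which the rule excluded on a naive gene, the caudal cells held 0.550% of the Tcl1 level, 0.993% of Dppa3, 2.02% of Esrrb and 5.54% of Nanog, but 117% of Klf4 and 342% of Gbx2, a factor also used in the posterior embryo. Against all other ES-NMP cells, in which the Zfp42 cells are counted, the lowest ratios among genes with at least 200 UMIs and 20 CPM in the higher group were those of Morc1 (63.6-fold lower), Dnmt3l (59.3-fold), Gpa33 (52.8-fold) and Dppa3 (44.6-fold).

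Most measured markers of endoderm, node and streak were lower in the caudal cells than in the other low-Zfp42 cells. Neural and paraxial mesoderm genes differed in either direction. All 5 measured endoderm genes were lower, with Sox17 at 1 UMI in the 919 cells (111-fold, 19.6 to 4416) and the hormone gene Trh 12.2-fold lower. Foxa1 and Ttr were at 0, and the summed level of the list was 20.8 CPM in caudal cells, against 82.7 to 443 CPM in the 4 other groups. Trh and Cldn6 made up most of that sum (222 and 71.5 of 300 CPM in all other ES-NMP cells, with Sox17 at 3.31 CPM). Its highest value was in the Zfp42 cells, so the sum is not read as a level of endoderm. Of the 4 measured node and notochord genes, Foxa2 (2.54-fold), Nog (4.19-fold) and Krt18 were lower. Chrd, the other one, was 1.54-fold lower on 16 and 34 UMIs and turned higher (log2 ratio 0.62) where the rule was applied to 1 part of the UMIs and levels read in the other. Shh and Cer1 were at 0. Of 11 streak genes, Evx1 (1.74-fold) and Fgf8 were higher and 7 were lower, among them Eomes (0.236 against 3.26 CPM, with 3 of its 5 caudal UMIs in 1 cell) and Mixl1 (12.0 against 27.3 CPM). Of 11 paraxial mesoderm genes, Hes7 was higher and 5 were lower. Msgn1, a defining gene of that tissue, was at 0, and Tbx6 had 8.60 against 12.9 CPM. Of 9 neural genes, Ncam1 and the spinal cord factor Irx3 (2.00-fold) were higher, while Pax3 (5.57-fold), Zic1 (4.05-fold) and Crabp1 were lower. A list of 13 measured genes held epithelial members and mesenchymal ones such as Fn1, Vim and Zeb2. Of these 13, 9 were lower and 1 was higher. Lower epithelial genes included Cldn6 (7.55-fold), Cldn7 (6.01-fold) and Cdh1 (13.9 against 39.8 CPM). The keratin genes Krt8 (5.03-fold) and Krt18 (4.74-fold), whose reads may be shared with near-identical copies, were lower too. Cdh2, the cadherin of mesenchymal and neural cells, was higher (1.55-fold, 45.7 against 29.5 CPM).

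Some of the largest differences rested on few cells. The smooth muscle actin gene Acta2 was 28.6-fold lower in caudal cells (3.97 against 113 CPM), but a single cell without Nkx1-2 held 1737 of the 3304 Acta2 UMIs of the other low-Zfp42 cells. Without the highest cell of each group Acta2 was 14.8-fold lower (3.64 against 53.9 CPM). Sfn, which encodes a 14-3-3 protein of epithelia, was 7.95-fold lower, and 46.2% of its caudal UMIs came from 1 cell, without which it was 13.8-fold lower. Tagln (12.6-fold), Krt19 (12.0-fold) and Cryab (13.1-fold) were also lower. Of 7 measured smooth muscle and lateral mesoderm genes, 5 were lower and none higher. Their summed level was 110 CPM in caudal cells, 2110 CPM in the Hox cells without Nkx1-2 and 94.3 to 659 CPM in the other groups, with Kdr and Col3a1 at 0 in the caudal cells.

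The 2 groups most like the caudal cells each miss 1 criterion. Against the 841 Nkx1-2 cells with low Hox, 424 of 11407 genes (3.72%) were higher in the caudal cells and 837 (7.34%) lower. Of the NMP genes 13 of 23 were higher and 1 (Gbx2) lower. Of 9 neural genes 3 were higher and 1 lower, and of 9 paraxial mesoderm genes 2 were higher and 1 lower. Cdx4 was 13.0-fold higher (7.68 to 23.5), Hes7 6.11-fold, Fgf17 3.54-fold, Cdx2 3.08-fold (2.96 to 3.19, 579 against 188 CPM) and Wnt3a 2.40-fold. Hoxc9 had 22.5 against 0.312 CPM, but 3 of the 6 UMIs in the low-Hox cells came from a single cell. T, by contrast, was at 156 against 142 CPM (1.10-fold, 1.04 to 1.16) and Wnt8a at 71.8 against 61.8 CPM. Averaged over each group, T and Wnt8a thus had near-equal levels in caudal and low-Hox cells, while Cdx2 and Wnt3a did not. The low-Hox group includes cells with 1 posterior Hox UMI, and T differed between finer Hox bins, as given below. The low-Hox cells held more Pou5f1 (229 against 574 CPM), Nanog (7.56 against 48.4 CPM), Tdgf1 (17.8-fold lower in caudal cells) and Trh (12.6-fold lower).

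Against the 81 Hox cells without Nkx1-2, 960 of 10266 genes (9.35%) were higher in the caudal cells and 780 (7.6%) lower, over a much smaller number of UMIs. Most measured Hox genes outside the rule were neither higher nor lower. Of 14 genes of paralogue groups 1 to 5, 1 was higher and 2 were lower (median log2 ratio -0.00065, against 0.02 over all genes tested). The higher one, Hoxa4, rested on 65 and 3 UMIs, and its interval includes equal levels (1.67-fold, 0.547 to 8.32). Hoxd4 (1.67-fold, 1.13 to 2.41) and Hoxb3 (1.64-fold, 1.02 to 2.51) were the lower ones. Of 5 in groups 6 to 9 outside the rule, Hoxd9 was 2.51-fold lower (2.00 to 3.13), and Hoxa10 was 1.95-fold higher on 101 and 4 UMIs (0.738 to 7.29). Hes7 had 90.6 against 87.6 CPM. Of the NMP genes 11 of 23 were higher and none lower. Of 9 naive genes, 5 were higher and 1 was lower, and of 14 primed and core genes, 6 were higher and 1 was lower. Wnt8a was 4.88-fold higher (3.27 to 7.65, 71.8 against 14.7 CPM), the activin antagonist gene Fst 3.46-fold, Igfbp3 3.21-fold, Pou5f1 2.69-fold, Hes3 2.57-fold, T 2.30-fold (1.90 to 2.80) and Cdx2 2.05-fold. Crabp1 (45.2 against 261 CPM) and the paraxial gene Tbx6 (8.60 against 69.2 CPM) were lower in the caudal cells. Tagln was 56.3-fold lower, or 20.0-fold without the highest cell of each group, and Acta2 was 277-fold lower, or 9.84-fold without it.

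To follow the Hox dose, the cells with Nkx1-2 and at most 1 Zfp42 UMI were thinned to 8000 UMIs and grouped by the UMIs of the 5 posterior Hox genes (0, 1, 2 or 3, 4 to 6, and 7 or more, with 829, 209, 272, 281 and 169 cells). Since these genes are in the rule, the 919 caudal cells fall mainly into the upper bins, with 64 at 0 and 133 at 1. Cdx2 was at 211, 420, 523, 634 and 652 CPM in the bins, low to high. Hoxa7 was at 4.37, 13.8, 29.0, 55.2 and 84.3 CPM, and Hoxb4 at 9.05, 26.3, 41.4, 48.0 and 59.2 CPM. Cdx2 and these Hox genes were thus higher in each further bin, although the Cdx2 intervals of the top 2 bins overlap, as do the Hoxb4 intervals of the top 3. Pou5f1 ran the other way, at 547, 398, 248, 160 and 126 CPM, and Nanog at 46.7, 20.9, 8.73, 4.45 and 2.22 CPM.

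T, Wnt3a and Fgf8 followed neither order. T was at 139, 189, 182, 151 and 88.0 CPM. Fgf8 was at 70.0, 133, 157, 129 and 74.7 CPM, and Wnt3a at 12.4, 25.1, 37.2, 30.2 and 20.7 CPM. T was highest at 1 Hox UMI and Fgf8 and Wnt3a at 2 or 3, with overlapping intervals between those bins for each gene, and all 3 were lower again in the cells with most Hox UMIs. The WNT agonist gene Rspo3 was likewise highest at 2 or 3 (36.8, 92.7, 127, 108 and 76.2 CPM). Sox2 was at 27.9, 26.9, 33.5, 44.9 and 48.1 CPM and Ncam1 at 10.9, 16.1, 33.1, 54.3 and 65.8 CPM, both highest in the top bin, while Nkx1-2 itself ranged from 184 to 268 CPM.

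**Figure D2:**
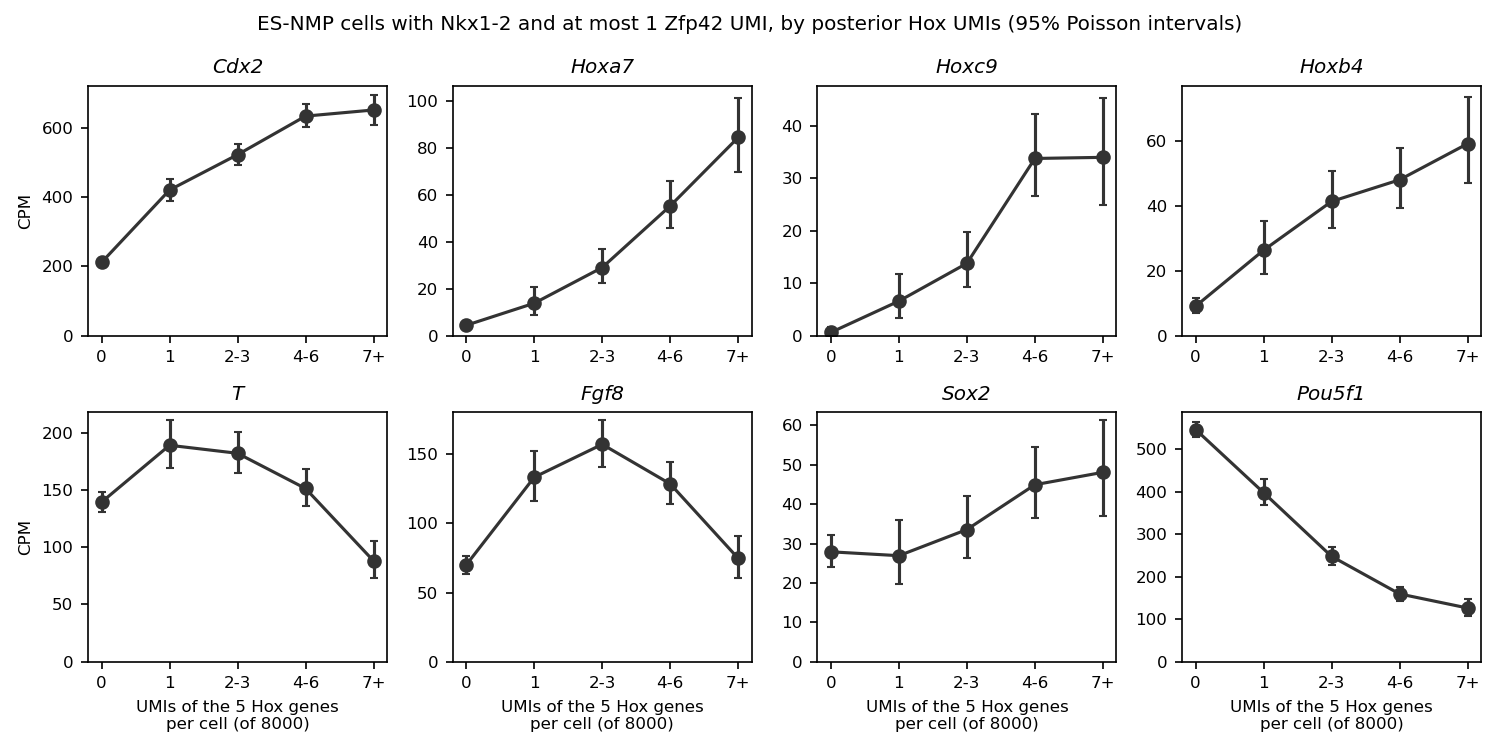
Points give the level (CPM, with 95% Poisson intervals) of 8 genes in ES-NMP cells with Nkx1-2 and at most 1 Zfp42 UMI, by their UMIs of the 5 posterior Hox genes among 8000 per cell. Cdx2, Hoxa7, Hoxc9 and Hoxb4 climb with the Hox bin, Pou5f1 runs the other way (547 CPM in the lowest bin and 126 CPM in the highest), and T and Fgf8 are highest at 1 and at 2 or 3 Hox UMIs.

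NMPs are commonly defined by the presence of T and Sox2 in the same cell. At 8000 UMIs per cell, 76 of the 919 caudal cells had both transcripts (8.27%, 6.57 to 10.2). A further 352 (38.3%) had T only, 140 (15.2%) had Sox2 only and 351 (38.2%) had neither. The share with both was 5.11% (3.72 to 6.83) in the Nkx1-2 cells with low Hox and 6.45% (4.91 to 8.30) in the Zfp42 cells, and in this thinning the intervals of these 3 groups overlap. Another thinning gave a higher caudal share, stated below. Shares of this kind depend on depth. With all UMIs kept, the share was 27.9% (25.0 to 30.9) in caudal cells, against 16.2% (13.7 to 18.8) in the Nkx1-2 cells with low Hox and 19.1% (16.6 to 21.9) in the Zfp42 cells, so the caudal interval lay above both. At 4000 UMIs per cell it was 4.79% (3.50 to 6.37) in caudal cells, against 2.02% (1.18 to 3.22) and 2.53% (1.60 to 3.81), and the caudal interval lay above the first of these and overlapped the second. Neither T (0 to 9 UMIs) nor Sox2 (0 to 5 UMIs) reached a median above 0 in the caudal cells at 8000 UMIs.

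**Figure D3:**
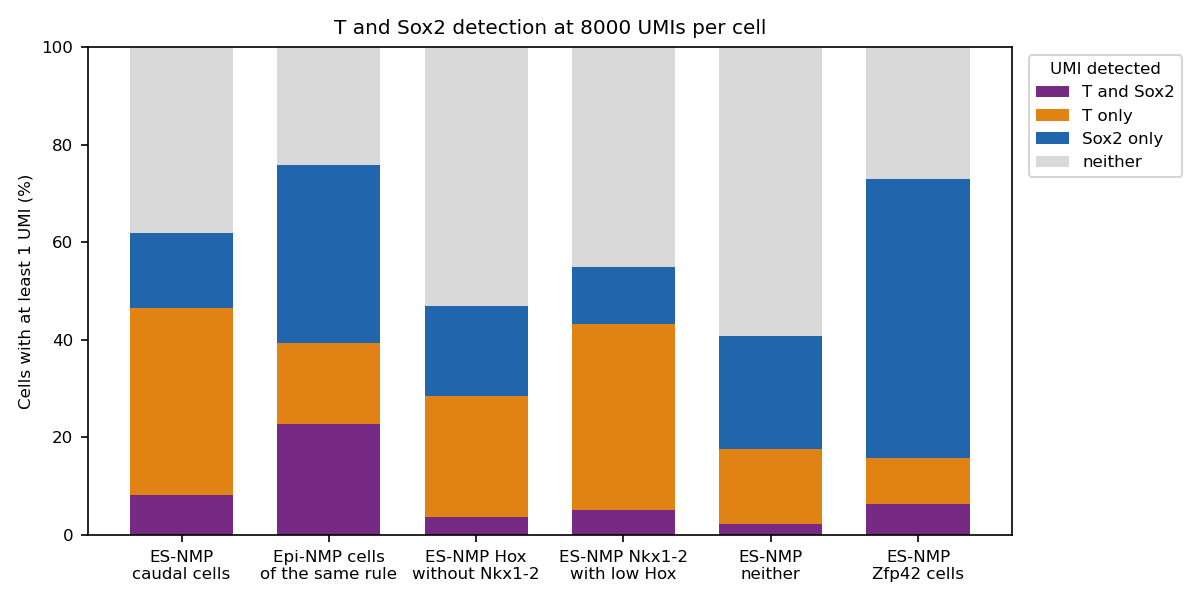
Stacked bars give the percentage of cells with at least 1 UMI of T and Sox2, of T only, of Sox2 only or of neither, at 8000 UMIs per cell. Both transcripts were found in 8.27% of ES-NMP caudal cells and 22.8% of Epi-NMP cells of the same rule.

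The caudal cells were then divided by T itself, on counts thinned to 8000 UMIs, into 428 cells with a T UMI and 491 without. With all UMIs kept, 591 of the 919 (64.3%) had a T UMI, so part of the cells called without T did hold it. Of 7932 genes, 297 (3.74%) were higher in the cells with T and 210 (2.65%) lower. Wnt3a was 7.30-fold higher in the cells with T (4.95 to 11.1, 55.8 against 7.64 CPM), Fgf8 4.78-fold (4.06 to 5.65, 221 against 46.3 CPM), Rspo3 3.65-fold, the NODAL antagonist gene Lefty1 3.44-fold (362 against 105 CPM), Fgf17 3.41-fold and Hes7 2.97-fold. Fgf4 was 9.29-fold higher on 81 and 10 UMIs. Streak genes were higher in 5 of 6 cases, including Mixl1 (6.26-fold, 3.26 to 13.2) and Fst (2.82-fold), and paraxial genes in 4 of 6, including Tbx6 (3.92-fold, 2.02 to 8.19), Dll3 (2.54-fold) and Dll1 (2.08-fold). Tbx6 is on both lists and is counted in each. The insulin-like growth factor binding protein gene Igfbp3 (4.40-fold), S100a11 (3.67-fold) and S100a10 (3.38-fold) were also among the 10 highest.

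All 6 measured neural genes were lower in the cells with T (median log2 ratio -1.46, against -0.02 over all genes tested). These were Crabp1 (4.97-fold, 3.60 to 7.02, 12.9 against 63.9 CPM), Sox1 (3.49-fold), Irx3 (3.12-fold, 9.64 against 30.0 CPM), Irx5 (2.43-fold), Ncam1 (2.04-fold) and Hes5 (1.95-fold). Sox2 was 1.86-fold lower (1.44 to 2.41, 26.6 against 49.4 CPM) and Hes3 1.87-fold lower. The growth factor gene Ptn (3.72-fold), the neuronal tubulin gene Tubb3 (2.71-fold), the imprinted gene Mest (2.46-fold) and the progenitor gene Hmga2 (2.21-fold) followed. Cells with a T UMI at this depth therefore carried more transcripts of most measured streak and paraxial genes. Cells without one carried more neural ones, inside a population chosen by the same caudal rule.

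Of 22 measured caudal epiblast and NMP genes, 10 were higher in the cells with T and 3 lower (median log2 ratio 0.53), with Wnt3a, Fgf8 and Fgf17 among the higher and Sox2, Hes3 and Epha5 (1.79-fold) the lower ones. Epha5 rested on 19 and 39 UMIs and reversed with another thinning. Cdx2 had 565 CPM in cells with T, against 584 CPM in those without (ratio 0.967, 0.910 to 1.03). Nkx1-2 had 235 against 257 CPM. Of 12 genes of Hox groups 1 to 5, none was higher and 1 (Hoxa2, 1.78-fold) was lower. Of 5 genes of groups 6 to 9 outside the rule, Hoxd9 was 1.91-fold higher (1.35 to 2.73) and Hoxc9 1.59-fold lower (1.15 to 2.23). No S-phase or G2/M gene of 20 each passed 1.5-fold in either direction.

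**Figure D4:**
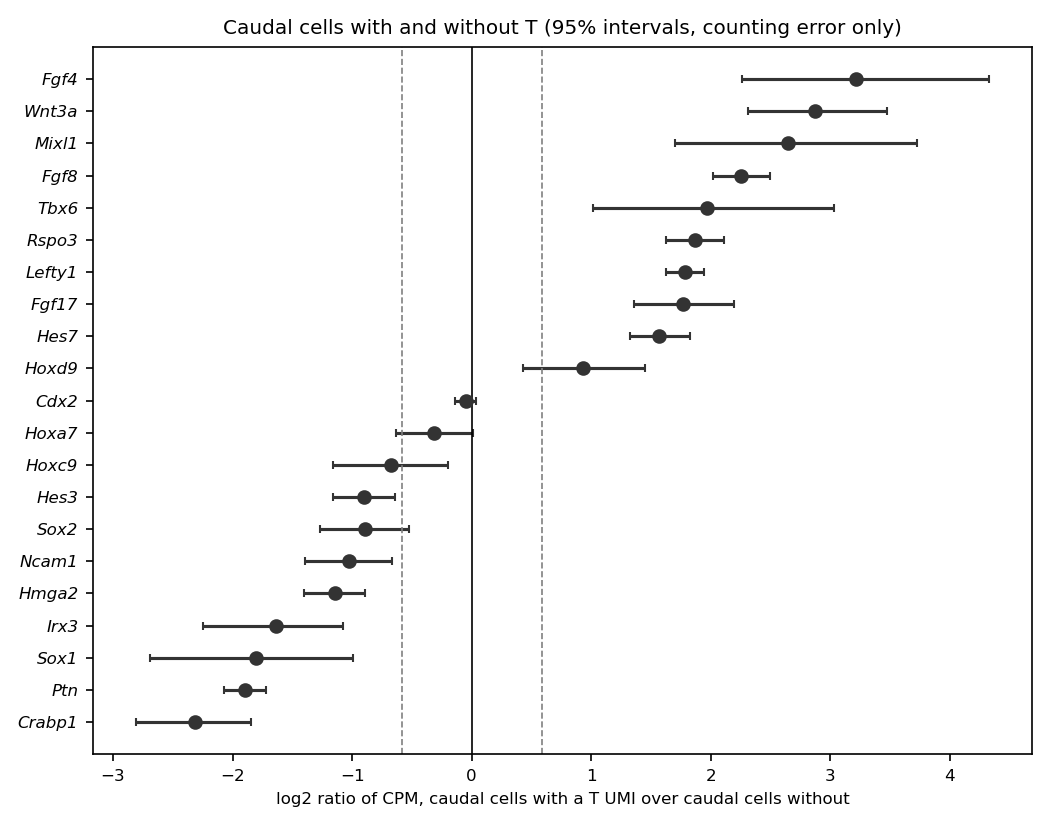
Points give the log2 ratio of CPM between caudal cells with a T UMI and caudal cells without, for 21 named genes, with 95% intervals for counting error and dashed lines at 1.5-fold. Wnt3a and Fgf8 lie far to the right (7.30-fold and 4.78-fold), Cdx2 lies at 0 and Crabp1 and Sox1 lie on the left.

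Applied to Epi-NMP, the rule found 469 of 1111 cells marked TRUE (42.2%, 39.3 to 45.2). Of 10786 genes, 1328 (12.3%) were higher in the ES-NMP caudal cells and 1034 (9.59%) lower. Of the rule's genes, which are given as a description, Hoxb8 had 129 against 133 CPM, Hoxb7 66.5 against 60.9 CPM, Hoxb6 58.7 against 36.8 CPM and Nkx1-2 245 against 141 CPM. Hoxb9 had 160 against 268 CPM and Hoxc8 71.9 against 109 CPM, so these genes differed in either direction. Cdx2 had 579 against 521 CPM (1.11-fold). T was at 156 against 119 CPM (1.31-fold, 1.23 to 1.40) and Fgf8 at 124 against 92.2 CPM. Of 23 measured caudal epiblast and NMP genes, 10 were higher in the ES-NMP caudal cells and 6 lower (median log2 ratio 0.39). Cdx1 was 8.30-fold higher in ES-NMP caudal cells (7.08 to 9.79), Wnt8a 25.8-fold (17.9 to 38.7, 71.8 against 2.78 CPM), Hes3 17.8-fold and Wnt3a 5.26-fold (4.01 to 7.01), and Cdx4 had 214 UMIs against 1 (ratio 105, interval 18.7 to 4185). The lower members were Epha5 (5.88-fold), Cyp26a1 (4.72-fold), Sox2 (4.06-fold), Wnt5a (2.38-fold), Greb1 (2.24-fold) and Foxb1 (1.59-fold).

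Posterior Hox genes outside the rule were at lower levels than in the Epi-NMP cells. All 6 measured genes of groups 6 to 9 outside the rule and all 3 of groups 10 to 13 were lower in the ES-NMP caudal cells. Hoxc9 was 4.95-fold lower (4.45 to 5.52, 22.5 against 111 CPM), Hoxa9 3.01-fold, Hoxc10 24.6-fold (17.4 to 35.8, 1.65 against 40.7 CPM) and Hoxd10 15.1-fold. Of 14 genes of groups 1 to 5, 7 were lower as well, including Hoxb3 (2.86-fold) and Hoxd4 (2.18-fold), and 2 were higher (median log2 ratio -0.44). Hoxb1, 1 of these 2, was 10.4-fold higher (97.5 against 9.40 CPM). Sox2 was 4.06-fold lower (37.3 against 152 CPM), and at 8000 UMIs T and Sox2 were found together in 8.27% of ES-NMP caudal cells, against 22.8% (19.1 to 26.9) of the Epi-NMP cells.

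Pluripotency and streak genes were the converse. Of 9 measured naive genes 7 were higher in the ES-NMP caudal cells and none lower, and 5 of 8 streak genes were higher and none lower. Pou5f1 was 35.1-fold higher (27.7 to 45.3, 229 against 6.52 CPM), Lefty1 85.7-fold, or 373-fold without the highest cell of each group since 21 of the 27 Epi-NMP UMIs came from 1 cell, and Fst 48.7-fold (392 against 8.06 CPM). Nanog had 7.56 against 0.288 CPM (3 UMIs, ratio 26.3, interval 8.83 to 129). Gdf3 was at 0 in the Epi-NMP cells and so at least 33.7-fold higher. Calml4 (105-fold), the neural factor gene Zic1 (9.82-fold), Hmga2 (3.22-fold) and the guidance gene Sema3a (7.87-fold) were lower. Hprt was 232-fold higher, as the difference between the libraries given above already showed. Line, protocol and library cannot be told apart in any of these values.

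**Figure D5:**
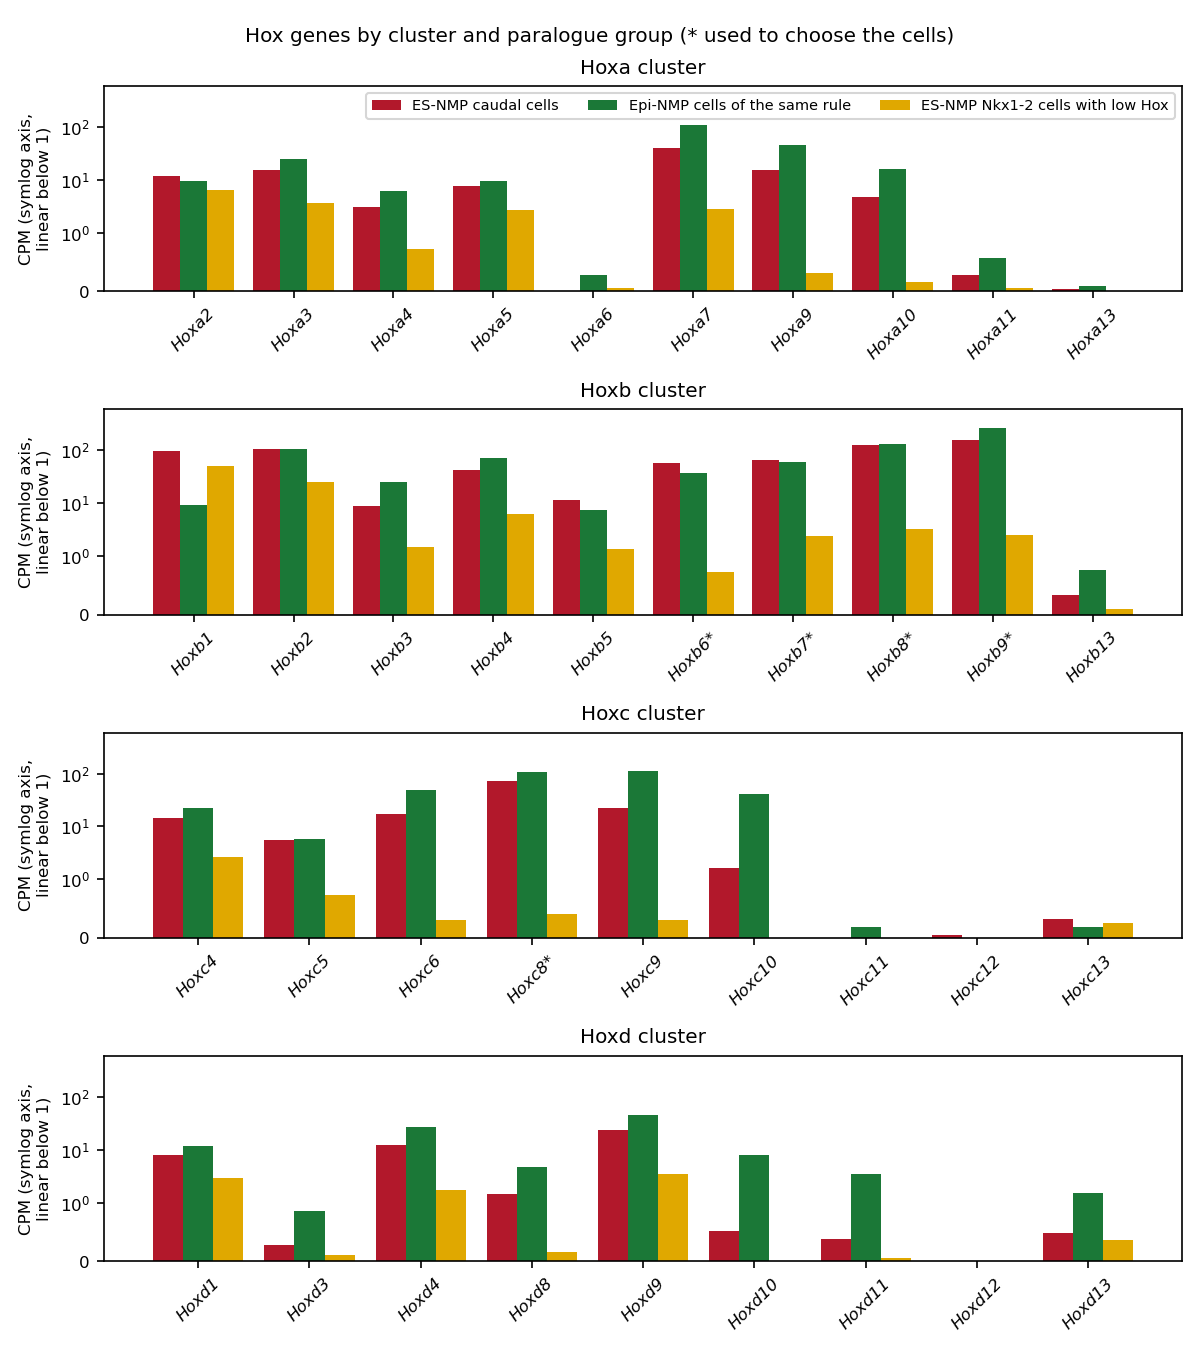
Bars give the level (CPM, on an axis that is linear below 1 and logarithmic above) of Hox genes in ES-NMP caudal cells, Epi-NMP cells of the same rule and ES-NMP Nkx1-2 cells with low Hox, by cluster and with asterisks on the genes of the rule. The Epi-NMP bars exceed the ES-NMP caudal bars from Hoxa7 to Hoxa11, Hoxc6 to Hoxc10 and Hoxd8 to Hoxd11, while Hoxb1 is higher in the ES-NMP caudal cells (97.5 against 9.40 CPM).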

How the data were processed

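The authors deposited a single table of unnormalized UMI counts (27998 genes by 10579 barcodes). The submitters' processing notes name mm10 as the genome build and, as tools, Seurat 2.0 and Cell Ranger 1.3.1. The annotation, the use of strand and the meaning of the TRUE or FALSE mark on each barcode are not given in the sources used here. Every TRUE barcode had at least 8011 UMIs, so thinning to 8000 left none out. Each group is 1 library, assigned from its title.

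Counts were summed over the cells of a group and divided by the group's total (CPM, per 1000000). Ratios carry exact conditional-binomial intervals, levels exact Poisson intervals and shares exact Clopper-Pearson intervals, all at 95% and for counting error only. A gene with 0 UMIs in a group was set to a floor of 3 counts and its ratio given as a bound. Lists had 50 UMIs as the minimum for a member. Named genes were the 10 highest and 10 lowest ratios among genes with at least 200 UMIs and 20 CPM in the higher group, without the 7 rule genes and ribosomal, mitochondrial and predicted genes, plus up to 4 members of each of 27 lists (340 genes) with the largest ratios and a fixed set of caudal genes. Other list members named were chosen after their values were seen. The cells, the lists and the rule were chosen with earlier results of these data known.

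Python 3.11.15, numpy 2.4.6, scipy 1.17.1, pandas 2.3.3 and scanpy 1.11.5 (Scrublet) were used, with edgeR 4.0.16 and DESeq2 1.42.0 for alternative scaling factors of the counts, and the ratio computation was tested on simulated data. Another thinning and leaving out the cell with the most UMIs of each gene were alternatives chosen after seeing the data. Gene positions are from GENCODE M21 and promoters from RefSeq. A withheld item is not reported here, in text or plots.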

Additional observations from a re-analysis of the deposited data

Results flagged for a closer look

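The rule of the caudal cells also found cells outside the comparisons. In Epi-CE, 29 of 2386 cells marked TRUE met it (1.22%), of which 14 had a Hox sum of exactly 2. Those 29 cells had 519 CPM of Cdx2, 374 CPM of T and 22.2 CPM of Hoxb9, and Hoxc9 was at 0 UMIs. In Epi-CE-T, 6 of 2109 cells met it (0.284%), with 485 CPM of Cdx2, 422 CPM of T and 184 CPM of Hoxb9. In ES-NMP, 30 of the 172 cells marked FALSE met it (17.4%), with 555 CPM of Cdx2, 143 CPM of T and 193 CPM of Hoxb9, at a median depth of 6982 UMIs over all 172. In Epi-NMP, where more cells were marked FALSE than TRUE, 170 of the 1513 marked FALSE met it (11.2%). The median depth over those 1513 was 4720 UMIs.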

How the results depend on the processing

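No paired analysis was possible because each group is 1 library. Thinning to 8000 UMIs before the rule lowered the members to 606. Without a minimum on UMIs, or with a 2-fold threshold, the genes counted were 2197 or 292 higher and 2764 or 1023 lower than in all other ES-NMP cells, 1053 or 121 higher and 2530 or 541 lower than in the other low-Zfp42 cells, 2450 or 693 higher and 2277 or 363 lower than in Epi-NMP, and 1556 or 76 higher and 1403 or 34 lower in caudal cells with T than without. Thinning before the rule gave 841 higher and 676 lower than in Epi-NMP. The share with T and Sox2 was 27.9% unthinned, 4.79% at 4000 UMIs and 10.0% with another thinning. On the log2 scale, Chrd (0.62 with the rule on a part of the UMIs) and Msx2 (0.57, thinned before the rule) reversed against the other low-Zfp42 cells, as did the node list against Epi-NMP (median 0.29 thinned before the rule, 0.89 with the rule on a part of the UMIs) and, with another thinning, Epha5 (0.14) and Tcf7l2 (0.28) by T. The cause was not tested. List medians that fell on a gene at 0 in 1 group gave no value under 2 alternatives. Scalings, all barcodes, other Hox, Nkx1-2 and Zfp42 limits and removal of Scrublet scores or of the deepest cells were also tried. Of 6325 values of named genes over the alternatives, 5817 stayed within the counting interval of the reported value, 504 moved beyond it and 4 reversed. Genes with few UMIs, such as Cdx4, Otx2 and Sox17, are limited by depth.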

Other observations

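Over all genes tested between the caudal cells and the other low-Zfp42 cells, 2.82% were higher and 9.04% lower. None of the 20 S-phase and 20 G2/M genes measured passed 1.5-fold in either direction. In the glycolysis list 2 of 17 genes were higher and 1 lower. The glucose transporter genes Slc2a3 (2.26-fold, 295 against 131 CPM) and Slc2a1 (1.79-fold, 350 against 196 CPM) were the higher ones. Of 12 immediate early and stress genes 5 were lower (median log2 ratio -0.47), with Egr1 at 25.4 against 40.8 CPM, and in the p53 list (12 measured, median -0.34) Trp53inp1 (1.73-fold) was 1 of 3 lower genes. Among 15 guidance and adhesion genes 3 were higher and 4 lower. The repulsive ligand gene Sema3a was 4.59-fold higher (2.36 against 0.515 CPM) and Epha5 3.66-fold, while Efnb2 was 2.17-fold lower. The RNA regulators Lin28a (1.47-fold) and Lin28b (1.46-fold) stood just under 1.5-fold, and none of 11 in that list passed it.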
